A study of Mus musculus with 8 samples.

Results

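The genes of the major histocompatibility complex (MHC) and of antigen presentation were followed in hearts of mice that had lost Mettl3, the catalytic subunit of the m6A methyltransferase, in cardiomyocytes. Members were the protein-coding rows of the gene table whose symbol starts with H2-, the mouse MHC prefix, together with 11 named genes: B2m, Tap1, Tap2, Tapbp, Psmb8, Psmb9, Psmb10, Nlrc5, Ciita, Cd74 and Erap1. This gave 35 members among 23045 genes. They were split by function into 24 class I genes, 10 class II genes and 1 gene of neither class, H2-Ke6, which lies in the region but encodes a metabolic enzyme. The series compared 4 libraries of Mettl3 KO hearts with 4 libraries of WT hearts. Mettl3 KO mice were Mettl3lox/lox and carried the αMHC-MerCreMer transgene, a tamoxifen-activated Cre recombinase under the promoter of the cardiac alpha myosin heavy chain, a gene that shares its abbreviation with the MHC but is unrelated to it. WT mice were Mettl3lox/lox without the transgene. Mice of both genotypes were 10 to 16 weeks old and received 100 µg tamoxifen per g body weight by intraperitoneal injection on 7 consecutive days. Only Mettl3 KO mice carried Cre, so the presence of activated Cre and the loss of Mettl3 cannot be told apart here, and the promoter is that of a cardiomyocyte gene, so that deletion is not designed to reach the other cells of the heart. Whole hearts were sequenced as total RNA, and the labels do not say from which animal, litter or day a library came, so that p-values measure the spread between these libraries.

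Class I molecules consist of a heavy chain and beta-2 microglobulin (B2m) and are found on nearly all nucleated cells, where they present peptides cut by the proteasome, carried into the endoplasmic reticulum by the Tap1/Tap2 transporter and trimmed by Erap1. Class II molecules are pairs of an alpha and a beta chain on professional antigen-presenting cells such as macrophages, dendritic cells and B cells, guided to endosomes by the invariant chain Cd74. Both sets are induced by interferon gamma, class I mainly through the transactivator Nlrc5 and class II through Ciita. In a bulk heart sample the RNA of all these cells is mixed, and fewer cells of a type and less RNA per cell cannot be told apart.

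Values are normalised read counts as deposited, whole numbers whose library totals lay between 2839589 and 2916986, and they stood for about 2631300 to 3062500 reads per library. At this depth a count of 0 allows up to 3 reads, a value between 2.78 and 3.33 depending on the library, for counting error only. The labels were checked first. Mettl3 was at 105, 133, 118 and 107 in WT and at 74, 68, 69 and 78 in Mettl3 KO, which gave a log2 fold change of -0.67 with an SE of 0.10 (limma adjusted p = 0.000184). Esr1, the estrogen receptor which lends a mutated hormone-binding domain to the MerCreMer fusion, rose by a log2 fold change of 5.45 and did not overlap between the genotypes. Cardiomyocyte marker genes (Myh6, Actc1, Tnnt2, Tnni3, Ttn and Ryr2) summed to between 87889 and 94277 in WT and between 85267 and 95341 in Mettl3 KO, a sum that Ttn dominates. Every one of the 6 was at 777 or more in each library. Ryr2, the calcium release channel, fell from 9731, 9666, 10427 and 9715 to 9017, 8241, 8494 and 7975 (log2 fold change -0.23, limma adjusted p = 0.000137), a call lost without the mean-variance trend, that is, when the variance was not modelled by level (limma adjusted p = 0.139), and the other 5 did not pass.

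The promoters of H2-K1, H2-D1, H2-Q4 and B2m are shown here beside 1 class II promoter. These are class I genes whose levels moved together between libraries, described further down. The promoters hold short letter strings, of the kinds that known regulators of these genes bind, in a partly shared order. RefSeq windows on GRCm38.p6 of 300 bases, from 250 before to 50 after the annotated start, were matched by symbol for 27 of the 35 members, and Nlrc5, Ciita, Cd74, H2-Ab1, H2-Q5, H2-T10, H2-T24 and Tap2 had none. The windows are chr17:34000298-34000597 (minus strand) for H2-K1, chr17:35262844-35263143 (plus) for H2-D1, chr17:35379367-35379666 (plus) for H2-Q4, chr2:122147437-122147736 (plus) for B2m and chr17:34287774-34288073 (minus) for H2-Aa. Capitals mark GGGANTNCC (NF-kB type), GAANNGAAA (core of an interferon-response element), TGACG (cyclic AMP-response type) and CCAAT, each on either strand and in that order of search. Only these exact strings were searched, so that related forms of another length or spacing stay in lower case. The B2m window, for example, holds gaaactgaaa and gggaaagtccc, which these patterns cannot match. A window without a mark may therefore still hold an element of the same type.
H2-K1: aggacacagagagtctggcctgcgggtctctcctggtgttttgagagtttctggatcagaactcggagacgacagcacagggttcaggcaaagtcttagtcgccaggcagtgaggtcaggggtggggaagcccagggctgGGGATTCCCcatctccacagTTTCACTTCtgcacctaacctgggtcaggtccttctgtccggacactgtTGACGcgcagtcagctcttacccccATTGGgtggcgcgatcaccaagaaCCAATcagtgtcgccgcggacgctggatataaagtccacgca
H2-D1: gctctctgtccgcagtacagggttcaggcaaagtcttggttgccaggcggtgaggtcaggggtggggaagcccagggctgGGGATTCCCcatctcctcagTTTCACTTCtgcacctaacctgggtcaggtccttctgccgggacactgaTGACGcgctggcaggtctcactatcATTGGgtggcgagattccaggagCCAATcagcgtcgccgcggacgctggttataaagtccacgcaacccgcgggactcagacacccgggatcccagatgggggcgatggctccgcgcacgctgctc
H2-Q4: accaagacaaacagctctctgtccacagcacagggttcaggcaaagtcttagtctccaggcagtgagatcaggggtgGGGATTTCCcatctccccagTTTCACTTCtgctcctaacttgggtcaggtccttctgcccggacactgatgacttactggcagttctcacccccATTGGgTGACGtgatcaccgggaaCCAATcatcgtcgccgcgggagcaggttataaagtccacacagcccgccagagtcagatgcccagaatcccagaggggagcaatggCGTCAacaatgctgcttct
B2m: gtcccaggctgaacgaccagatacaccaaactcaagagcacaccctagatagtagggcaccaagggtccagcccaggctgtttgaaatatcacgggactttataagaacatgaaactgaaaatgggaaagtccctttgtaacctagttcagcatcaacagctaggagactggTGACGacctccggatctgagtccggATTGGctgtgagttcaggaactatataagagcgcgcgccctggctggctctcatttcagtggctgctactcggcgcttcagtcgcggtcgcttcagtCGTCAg
H2-Aa: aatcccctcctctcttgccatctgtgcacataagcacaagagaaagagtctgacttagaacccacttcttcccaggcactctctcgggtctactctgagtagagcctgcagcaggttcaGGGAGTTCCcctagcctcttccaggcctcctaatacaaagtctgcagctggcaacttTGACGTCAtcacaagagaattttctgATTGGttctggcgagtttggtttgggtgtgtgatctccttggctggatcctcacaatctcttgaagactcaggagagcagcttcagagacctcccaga
Each letter string was searched on both strands, and CCAAT reads as ATTGG on the other strand. H2-K1 and H2-DMa had more than 1 window, and a member was counted when any of its windows held the string. The shares over all windows count single windows. The interferon-response core in this form was in the windows of 8 of 19 class I members, each a heavy chain gene. It was in 0 of 7 class II members, against 7.52% of all 32851 windows of this length. GGGANTNCC stood in 6 of the 19 class I and 1 of the 7 class II members, against 3.95% of all windows. In H2-K1, H2-D1 and H2-Q4 the first base of the interferon-response core followed the first base of GGGANTNCC by 20 bases. CCAAT was in 14 of 19 class I and in 7 of 7 class II members, although 1 of the H2-DMa windows lacked it, and in 37.4% of all windows. TGACG was in 10 of 19 class I members, 1 of 7 class II members and 20.8% of all windows. The pair of TGACG followed by ATTGG after 19 to 21 bases, the arrangement of the X2 and Y boxes known from MHC promoters, was present in 5 class I members and in H2-Aa, compared with 0.201% of all windows. The gap was 20 bases in H2-K1, H2-D1 and B2m and 21 bases in H2-Aa. The windows of H2-Q6 and H2-Q7, which also varied with Nlrc5, are not printed. H2-Q7 held the pair with a gap of 19 bases, and H2-Q6 held no TGACG. The class I heavy chain genes are near copies of each other, so that their windows are not independent, and a match describes letters and not a bound site. The Psmb10 window (chr8:105938343-105938642, minus strand) held none of these exact strings, and neither did those of Psmb8, Erap1 and H2-M5. Whether they hold related forms was not looked at.

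Of the 35 members, 31 averaged 1 or more over the libraries and were tested, and 1 of them, the proteasome subunit gene Psmb10, passed the threshold (limma, Benjamini-Hochberg adjusted p under 0.05 over 20313 genes). In all genes tested 7.91% passed, so that the share among the members was not above the background. By voom, another form of the test, 1 member passed as well, and 2 members had an unadjusted p under 0.05, namely Psmb10 and H2-Aa. By class, 1 of 21 class I members tested and 0 of 9 class II members tested passed (1 class II member had an unadjusted p under 0.05, and voom called 0). Values did not overlap between genotypes for 1 of 31 members, again Psmb10, compared with 11.5% of all genes. H2-M2, H2-Q2, H2-Q10 and H2-Eb2 stayed below the minimum and had values of 0 to 3 in every library.

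**Figure D1:**
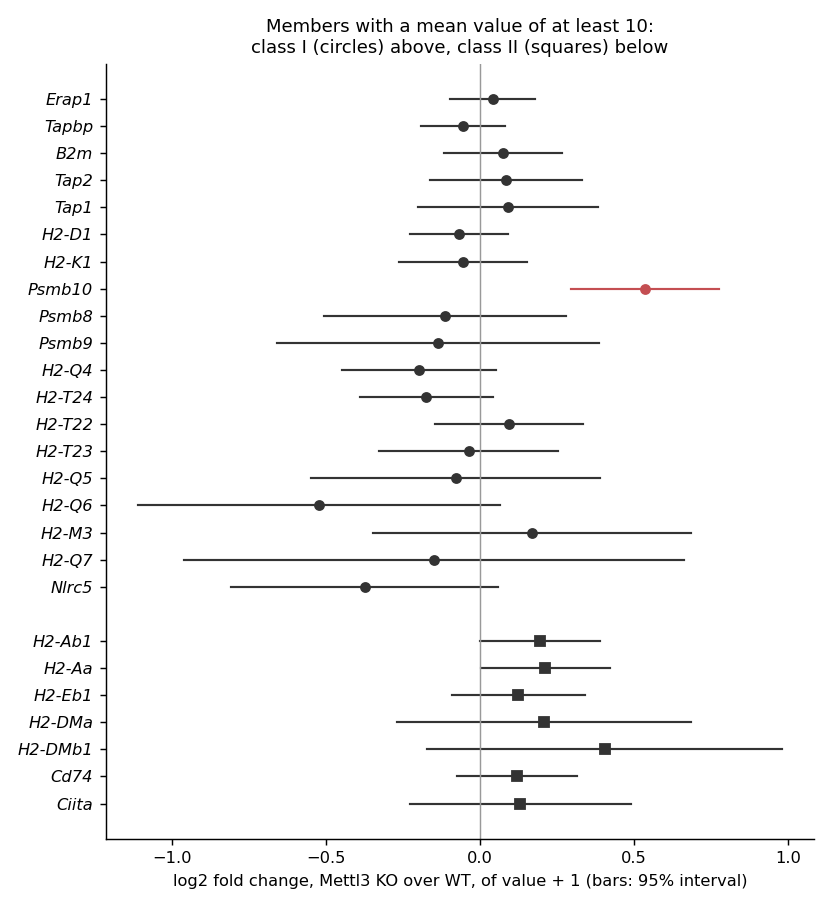
Log2 fold change (Mettl3 KO over WT, of the normalised read count plus 1) with 95% confidence intervals for the 26 members averaging 10 or more, class I as circles and class II as squares. Only Psmb10 (red) passed the test, the 7 class II members all lie to the right of 0, and 12 of the 19 class I members lie to the left.

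Psmb10 encodes one of 3 catalytic subunits that replace their constitutive counterparts in the immunoproteasome, the form of the proteasome that favours peptides for class I molecules. It lies at chr8:106662367-106665076 on the minus strand (mm39). Its value was 87, 81, 64 and 83 in the WT libraries and 93, 124, 116 and 126 in those of Mettl3 KO, with means of 78.8 ± 10.1 and 115 ± 15.1 (SD, n = 4 each). All Mettl3 KO libraries lay above all WT libraries, although Mettl3 KO replicate 1 was close to the highest WT library. The log2 fold change was 0.54 with an SE of 0.12 (95% interval 0.30 to 0.78, limma adjusted p = 0.00461). The call was lost (adjusted p = 0.101) when the variance was not modelled as a function of the level, a setting under which 321 genes were called in all, compared with 1607. The other immunoproteasome subunits did not follow. Psmb8 was at 31, 55, 45 and 56 in WT and at 60, 37, 39 and 36 in Mettl3 KO, with a log2 fold change of -0.11 (95% interval -0.51 to 0.28). Psmb9 was at 24, 19, 22 and 15 and at 29, 12, 17 and 17, with a log2 fold change of -0.14 (95% interval -0.66 to 0.39). In both genes the values of the genotypes overlapped and Mettl3 KO replicate 1 was the highest Mettl3 KO library, whereas it was the lowest for Psmb10. The difference between Psmb10 and the other subunits was not itself tested.

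Genes upstream of Psmb10 and the constitutive counterparts of the immunoproteasome subunits were looked up after the values of Psmb10 were seen. Psmb5, Psmb6 and Psmb7, the subunits that the immunoproteasome replaces, had log2 fold changes of -0.11, -0.06 and -0.07 and did not pass (limma adjusted p of 0.803, 0.736 and 0.709). Upstream of Psmb10 on the same strand lie Lcat, whose 3′ end is separated from the start of Psmb10 by 1106 bases, and Slc12a4, whose 3′ end is separated from the start of Lcat by 207 bases. Slc12a4, a potassium-chloride cotransporter, was at 196, 199, 223 and 212 in WT and at 274, 250, 255 and 271 in Mettl3 KO, a log2 fold change of 0.34 (limma adjusted p = 0.00215). Lcat, a cholesterol-esterifying enzyme of plasma, was at 4, 6, 5 and 2 and at 6, 13, 14 and 9, a log2 fold change of 1.14 that did not pass (limma adjusted p = 0.0584). Thus Slc12a4, Lcat and Psmb10 had higher means in Mettl3 KO, Slc12a4 and Psmb10 past the threshold. Genes downstream of Psmb10 were not looked up. Gm16156, a noncoding RNA gene on the opposite strand, overlaps Psmb10 over 2710 bases, and its values are not given here. The Slc12a4 call was lost in the same setting as that of Psmb10 (limma adjusted p = 0.0683). The table holds 1 value per gene, and whether reads in Psmb10 came from transcripts that began upstream was not tested.

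**Figure D2:**
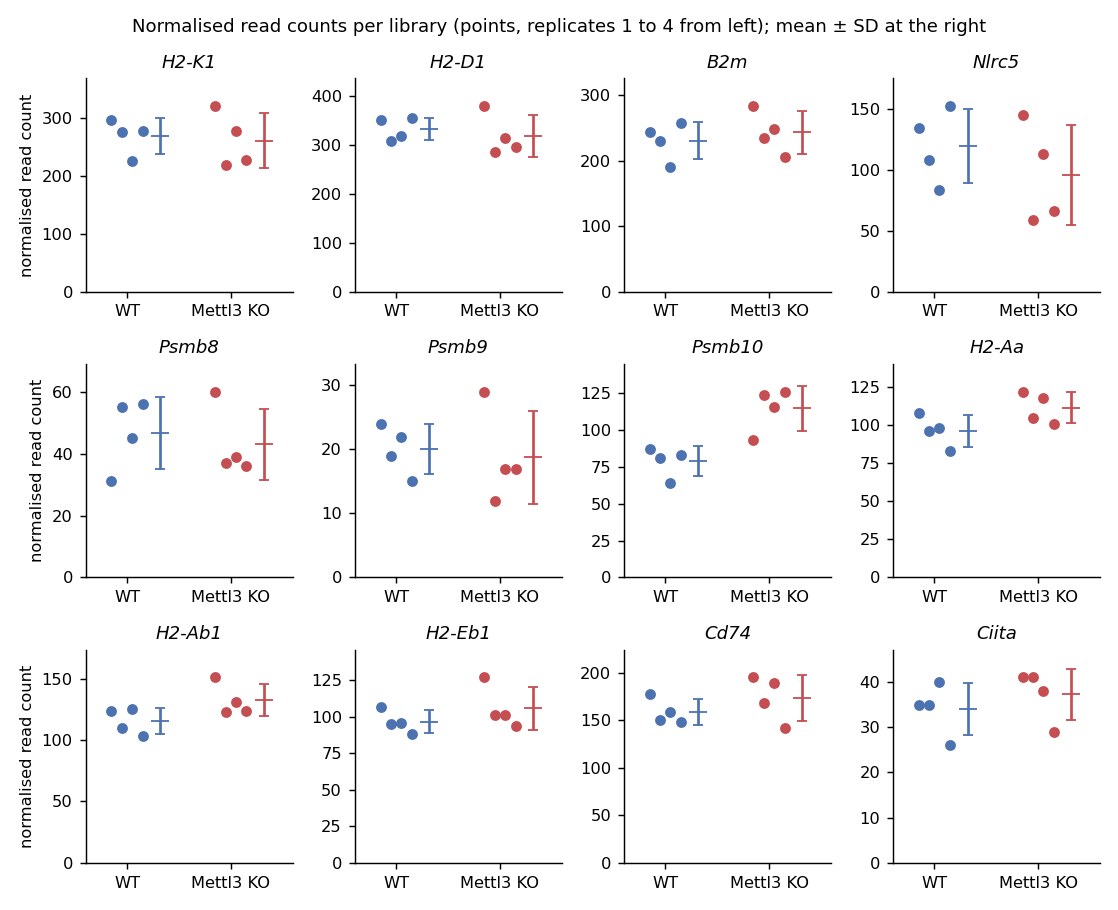
Normalised read counts of 12 members in each library, WT in blue and Mettl3 KO in red, with the mean ± SD at the right of each group; each vertical axis starts at 0. Only for Psmb10 do the 4 Mettl3 KO points (93 to 126) all lie above the 4 WT points (64 to 87).

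The classical class I heavy chains present peptides to cytotoxic T cells. H2-K1 was at 298, 276, 226 and 279 in WT and at 321, 219, 278 and 228 in Mettl3 KO, with means of 270 ± 30.8 and 262 ± 47.4 (SD). H2-D1 was at 351, 308, 318 and 354 and at 379, 285, 315 and 295, with means of 333 ± 23.2 and 319 ± 42.2. The genotypes overlapped completely in both genes, and the Mettl3 KO group held both the highest and the lowest library. Their log2 fold changes were -0.05 (95% interval -0.26 to 0.15, limma adjusted p = 0.834) and -0.07 (95% interval -0.23 to 0.09, limma adjusted p = 0.694). B2m, the light chain of every class I molecule, was at 243, 230, 191 and 258 and at 283, 234, 249 and 206, a log2 fold change of 0.08 (95% interval -0.12 to 0.27). For these 3 genes the intervals leave room for changes of at most 0.27 on the log2 scale in either direction.

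The nonclassical heavy chains of the Q, T and M regions present restricted sets of ligands or serve as ligands of natural killer cell receptors. Of 13 such genes, 10 were tested, 0 passed (0 by voom and 0 at an unadjusted p under 0.05), and 8 had a log2 fold change below 0. H2-Q4, the highest of them in mean value, was at 145, 118, 108 and 139 in WT and at 143, 92, 113 and 99 in Mettl3 KO, a log2 fold change of -0.20 (95% interval -0.45 to 0.05). H2-T24 was at 80, 97, 96 and 89 and at 85, 84, 78 and 73, a log2 fold change of -0.17 (95% interval -0.39 to 0.04). H2-T22 was at 73, 82, 70 and 71 and at 92, 68, 85 and 73, a log2 fold change of 0.09. H2-T23, which encodes Qa-1, the mouse counterpart of HLA-E, was at 74, 60, 68 and 45 and at 64, 57, 59 and 57, a log2 fold change of -0.04. In each of these 4 genes the genotypes overlapped. The lower members had wider intervals. H2-Q6 was at 37, 16, 20 and 26 in WT and at 28, 12, 18 and 11 in Mettl3 KO, a log2 fold change of -0.52 whose interval ran from -1.11 to 0.06, and which was -0.31 without WT replicate 1 and -0.78 without Mettl3 KO replicate 1. H2-Q5 was at 25, 20, 21 and 24 and at 29, 15, 27 and 17, H2-Q7 at 14, 10, 8 and 10 and at 18, 4, 18 and 5, and H2-M3 at 22, 15, 12 and 19 and at 25, 22, 16 and 14. H2-Q5 and H2-Q7 were more widely spread in Mettl3 KO than in WT, with SDs of 7.02 and 7.80 against 2.38 and 2.52. H2-T10 and H2-M5 ranged from 0 to 9. Values of these near copies are uncertain, since the authors removed reads that map to several places. In a transcript set on GRCm38, 26.6% of the 72-base stretches of H2-T22, 25.0% of H2-T10, 23.8% of H2-Q7, 23.1% of H2-Q4 and 22.5% of H2-Q6 also occurred in another gene, compared with 1.41% for H2-K1, 6.86% for H2-D1 and 0 for B2m and Psmb10.

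The transporter, its docking protein tapasin (Tapbp) and the trimming peptidase Erap1 load class I molecules. Tap1 was at 123, 76, 74 and 118 in WT and at 118, 97, 98 and 94 in Mettl3 KO, and Tap2 was at 111, 110, 126 and 143 and at 169, 104, 125 and 127. Tapbp was at 262, 283, 259 and 301 and at 269, 257, 282 and 255, and Erap1 at 309, 323, 306 and 337 and at 329, 293, 367 and 326. The log2 fold changes lay between -0.05 for Tapbp and 0.09 for Tap1, the groups overlapped in all 4 genes, and none passed (limma adjusted p of 0.725 to 0.807, 0 at an unadjusted p under 0.05 and 0 by voom). The intervals were -0.19 to 0.08 for Tapbp and -0.20 to 0.38 for Tap1.

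Per kilobase of exon, a scale that allows for the length of a gene, B2m led the members with 268 ± 33.4 in WT (SD, n = 4), followed by H2-D1 with 129 ± 9.0. Cd74, with 94.6 ± 8.16, and H2-K1, with 91.8 ± 10.5, did not differ beyond their spread. Tapbp followed with 76.1 ± 5.42. H2-Eb1 with 49.6 ± 4.04, H2-Q4 with 49.1 ± 6.71, Psmb10 with 46.2 ± 5.95, H2-Ab1 with 45.0 ± 4.20, Erap1 with 43.8 ± 1.96 and H2-T24 with 41.5 ± 3.60 lay within each other's spread or next to it. H2-Aa was at 25.3 ± 2.71, Nlrc5 at 14.0 ± 3.55 and Ciita, the lowest of the regulators, at 3.57 ± 0.61. Exon lengths came from a GRCm38 annotation and cover all annotated transcripts, which lowers the value of genes with long rare exons. Reads that fit several places or genes were discarded, which lowers the members unevenly. Of the 72-base stretches, 23.1% of H2-Q4, 17.8% of Tapbp and 13.3% of Erap1 also occurred in another gene, compared with 0 for B2m, Cd74 and Psmb10. The order of the members is thus approximate.

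Nlrc5, the transactivator of class I genes, was at 134, 108, 83 and 152 in WT and at 145, 59, 113 and 66 in Mettl3 KO, with means of 119 ± 30.2 and 95.8 ± 40.7 (SD, n = 4 each). Both genotypes held high and low libraries, and the groups overlapped. The log2 fold change was -0.37 with a 95% interval of -0.81 to 0.06 and did not pass (limma adjusted p = 0.333). It passed only when Mettl3 KO replicate 1 was left out (log2 fold change -0.61, limma adjusted p = 0.0454), and its size depended on single libraries, with -0.18 without Mettl3 KO replicate 2, -0.23 without Mettl3 KO replicate 4 and -0.25 without WT replicate 4. Over all alternatives its adjusted p lay between 0.0454 and 0.733. Its variance within genotypes was 12.2 times that of counting alone, and 69 of 13795 genes averaging 10 or more (0.5%) were as variable or more, the median gene being at 1.03.

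Several class I heavy chains varied with Nlrc5 from library to library, a pattern noticed in these same libraries and therefore described without a test. Across the 8 libraries, Pearson's r with Nlrc5 on the log2(value + 1) scale was 0.96 for H2-Q4, 0.92 for H2-K1, 0.90 for H2-D1, 0.89 for H2-Q5, and 0.86 for H2-Q6 and H2-Q7. Spearman's rho was 0.88 for H2-Q4 and 0.90 for H2-K1 and H2-D1. B2m had an r of 0.70 and a rho of 0.79. When the 2 libraries farthest from the median of Nlrc5, Mettl3 KO replicates 2 and 4, were left out, r was 0.90 for H2-Q4, 0.85 for H2-K1 and 0.79 for H2-D1, and it fell to 0.63, 0.63 and 0.50 for H2-Q5, H2-Q6 and H2-Q7, so that the relation of these low genes rests on those libraries. Other members moved the opposite way over these 6 libraries: r went from 0.70 to 0.91 for B2m, from 0.55 to 0.91 for Tap1, from 0.39 to 0.90 for H2-M3 and, in class II, from 0.32 to 0.96 for H2-DMa, the highest of all members. The order of the members, and the contrast between the classes, thus depends on which libraries are included.

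With the mean of each genotype removed, r with Nlrc5 was at least 0.80 for 7 of 18 other class I members averaging 10 or more, namely H2-K1, H2-Q4, H2-Q5, H2-D1, H2-Q7, B2m and H2-Q6. It was at least 0.80 for 0 of 7 class II members, whose highest value was 0.60 for Cd74, and for 1.54% of 13794 genes. The median was 0.68 in class I, 0.39 in class II and 0.01 over all genes. The r was -0.22 for Psmb10 and -0.07 for H2-T23. With genotype means kept, that of Psmb10 was -0.44 over the 8 libraries and 0.48 without Mettl3 KO replicates 2 and 4, so that its sign rests on those libraries. These values are descriptions over 8 libraries in 2 genotypes, and the class I genes share sequence and reads of the same libraries. The factor by which each library had been scaled, highest in the shallowest libraries, had an r of 0.54 with Nlrc5. The part of depth in the pattern was not tested.

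**Figure D3:**
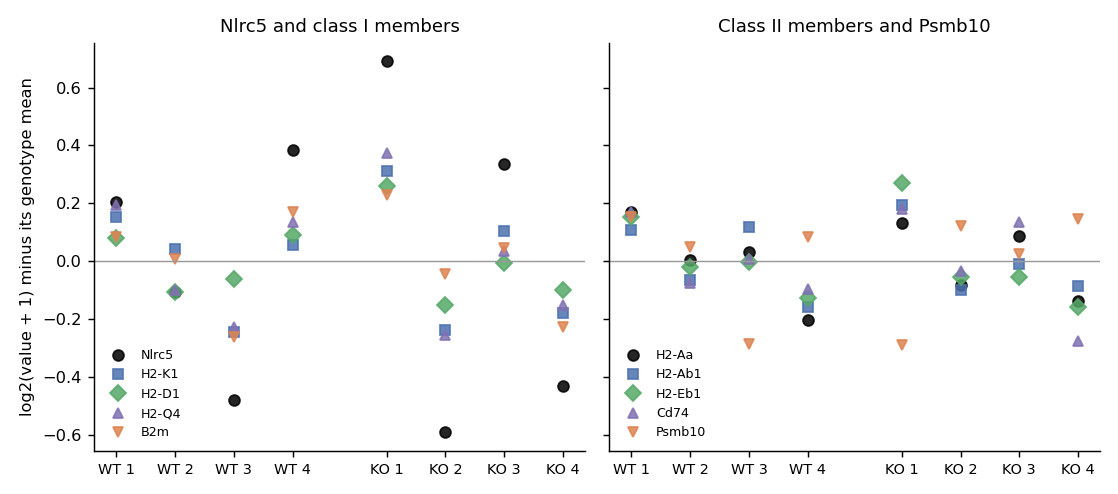
Deviation of log2(value + 1) from the mean of its genotype for 5 genes in each panel; the horizontal axis gives the 8 libraries, with KO for Mettl3 KO. On the left Nlrc5, H2-K1, H2-D1, H2-Q4 and B2m are high in WT 1, WT 4 and Mettl3 KO 1 and low in WT 3, Mettl3 KO 2 and Mettl3 KO 4. On the right the class II members H2-Aa, H2-Ab1, H2-Eb1 and Cd74 are also high in Mettl3 KO 1, while Psmb10 is low there.

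Of 9 class II members tested, 8 had a log2 fold change above 0, H2-Ob had one below 0, and 0 passed, as given above. The alpha and beta chains of the A molecule had the lowest unadjusted p among class II members. H2-Aa was at 108, 96, 98 and 83 in WT and at 122, 105, 118 and 101 in Mettl3 KO, with means of 96.2 ± 10.3 and 112 ± 10.1 (SD). H2-Ab1 was at 124, 110, 125 and 103 and at 151, 123, 131 and 124, with means of 116 ± 10.8 and 132 ± 13.0. In both genes the highest WT library lay among the Mettl3 KO libraries. The log2 fold changes were 0.21 for H2-Aa (95% interval 0.0021 to 0.42, limma adjusted p = 0.237) and 0.19 for H2-Ab1 (95% interval -0.0014 to 0.39, limma adjusted p = 0.247). H2-Eb1, the beta chain of the E molecule, was at 107, 95, 96 and 88 and at 127, 101, 101 and 94, a log2 fold change of 0.12 (95% interval -0.09 to 0.34). Cd74 was at 178, 150, 159 and 148 and at 195, 168, 189 and 142, a log2 fold change of 0.12 (95% interval -0.07 to 0.32), and here Mettl3 KO held both the highest and the lowest library. Ciita, the class II transactivator, was at 35, 35, 40 and 26 and at 41, 41, 38 and 29, a log2 fold change of 0.13 (95% interval -0.23 to 0.49).

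H2-DM exchanges the invariant chain peptide for antigenic peptides, and H2-O restrains it. H2-DMa was at 19, 15, 12 and 19 in WT and at 21, 16, 17 and 21 in Mettl3 KO, and H2-DMb1 at 11, 8, 11 and 9 and at 13, 18, 14 and 9. Their log2 fold changes of 0.21 and 0.41 had intervals from -0.27 to 0.69 and from -0.17 to 0.98. H2-DMb2 was at 0 to 6 in all libraries. H2-Ob, the beta chain of H2-O, was at 9, 7, 11 and 6 and at 10, 6, 4 and 3, and was the only class II member tested with a log2 fold change below 0 (-0.53, 95% interval -1.28 to 0.22). H2-Ke6 was at 2 to 5 in every library.

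Set against each other, 8 of 9 class II and 7 of 21 class I members tested had a log2 fold change above 0, compared with 48.2% of all genes. The median was 0.13 in class II and -0.07 in class I, and -0.01 over all genes. Within class I the heavy chains and the other genes differed. Of the heavy chains tested, 2 of 12 lay above 0 (median -0.11), and of the other class I genes 5 of 9 did (median 0.04). Without Mettl3 KO replicate 2 the class I median was 0.02, and over the libraries left out in turn it lay between -0.16 and 0.02, while that of class II lay between 0.08 and 0.25. Summed over their members, class I values came to 2454, 2301, 2126 and 2529 in the WT libraries and 2684, 2085, 2420 and 2134 in the Mettl3 KO libraries, and class II values were 597, 520, 556 and 482 and 685, 584, 619 and 523. The class I means were 2353 ± 178 and 2331 ± 278 (SD), a ratio of 0.99, and the class II means were 539 ± 49.2 and 603 ± 67.7, a ratio of 1.12. Both sums overlapped between the genotypes, and Mettl3 KO replicate 1 was the highest library of all in both. As a percentage of the separate class I sum, the class II sum came to 24.3%, 22.6%, 26.2% and 19.1% in the WT libraries and 25.5%, 28.0%, 25.6% and 24.5% in the Mettl3 KO libraries. WT replicate 4 had the lowest such ratio of all libraries, and WT replicate 3 exceeded 3 of the 4 Mettl3 KO libraries. The difference between the classes was not tested, since genes of a class are not replicates.

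**Figure D4:**
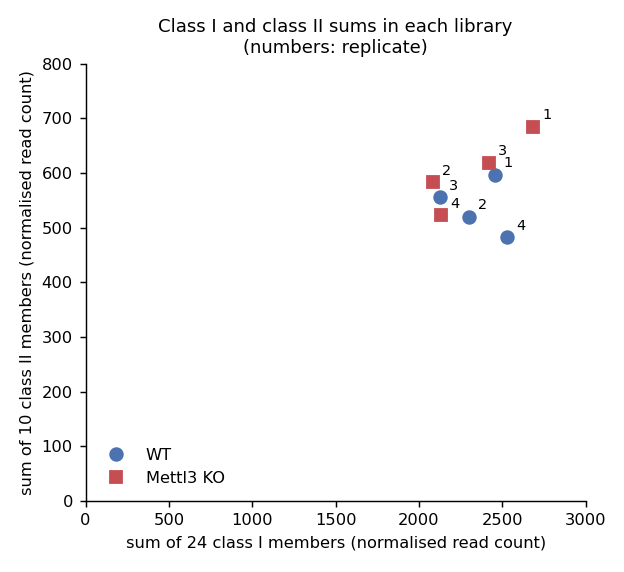
Sum of the class II members (vertical axis) against the sum of the class I members (horizontal axis), both in normalised read counts, for each of the 8 libraries, WT as blue circles and Mettl3 KO as red squares with replicate numbers. The 2 groups overlap on both axes, with WT from 482 to 597 and Mettl3 KO from 523 to 685 in class II.

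Genes that serve the same pathway were looked at in 4 lists. Among all genes tested 7.91% passed, 4.72% higher and 3.19% lower in Mettl3 KO, and the counts in these lists and in the marker lists that follow stand beside those shares. The calls in the lists of 23, 17 and 15 genes were not above 7.91%. In the list of 13 genes the 2 calls were above that share, and 6 genes had an unadjusted p under 0.05 (limma). Nothing is read from 1 or 2 calls in a list. Of 13 tested genes for class I folding and class I-like molecules, 0 rose and 2 fell, the chaperones Calr and Canx, which hold new class I heavy chains in the endoplasmic reticulum. Calr was at 717, 675, 730 and 720 in WT and at 616, 604, 624 and 606 in Mettl3 KO, a log2 fold change of -0.21 (limma adjusted p = 0.00378). Canx was at 1253, 1202, 1274 and 1271 and at 1049, 996, 1060 and 1014, a log2 fold change of -0.28 (limma adjusted p = 7.69e-05). In both chaperones no library overlapped between the genotypes. They assist the folding of many secreted and membrane proteins besides class I molecules. Of 17 regulators of class II and endosomal proteases, 0 passed in either direction, with a median log2 fold change of 0.06 (limma, with 2 at an unadjusted p under 0.05 and 0 called by voom). Of 23 genes of interferon gamma and NF-kB signalling 0 rose and 1 fell, the kinase Jak1, which signals below interferon receptors. Jak1 was at 840, 814, 886 and 874 and at 744, 685, 704 and 663, a log2 fold change of -0.29 (limma adjusted p = 0.00035). Of 15 tested receptors and co-receptors that read MHC molecules or act beside them 0 rose and 1 fell, the co-stimulatory receptor Cd40, which was at 22, 20, 24 and 16 and at 14, 13, 9 and 10, a log2 fold change of -0.79 (limma adjusted p = 0.0484). The Cd40 call held in 7 of 17 alternatives and was lost without any library other than WT replicate 4 or Mettl3 KO replicate 1 (limma adjusted p of 0.066 to 0.135), while those of Calr, Canx and Jak1 held in 16 of 17, the exception being the fit without the mean-variance trend.

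Class II genes are carried by immune cells, so marker lists of the cells a heart holds are given beside them. Markers of leukocytes in general summed to between 389 and 461 in WT and between 411 and 491 in Mettl3 KO, and 0 of 5 passed (limma, with 1 at an unadjusted p under 0.05 and 0 called by voom). Of 12 macrophage and monocyte markers, with sums of 1587 to 1889 in WT and 1629 to 1889 in Mettl3 KO, 1 rose and 1 fell. Ccr2, the receptor of monocytes entering from blood, rose from 71, 91, 95 and 85 to 137, 124, 105 and 113 (log2 fold change 0.48, limma adjusted p = 0.00639), and Cd163, a scavenger receptor of resident macrophages, fell from 255, 189, 220 and 178 to 161, 168, 162 and 161 (log2 fold change -0.35, limma adjusted p = 0.0168). Of 8 dendritic cell markers, with sums of 236 to 270 and 211 to 244, 1 rose and 1 fell. Most of this sum is Zbtb46, and the other 7 markers summed to 31, 42, 31 and 40 in the WT libraries and 57, 49, 44 and 44 in those of Mettl3 KO, a split made after the values were seen. These low sums did not overlap, but that rests on Cd209a: without it the other 6 markers summed to 30, 39, 29 and 39 in the WT libraries and 50, 39, 35 and 38 in those of Mettl3 KO, which overlapped. Of these 6, Clec9a and Siglech had log2 fold changes of -0.24 and -0.28. Those of Itgax, Flt3, Xcr1 and Batf3 were 0.32, 0.26, 0.48 and 0.97. None of the 6 passed (limma adjusted p of 0.285 to 0.823), and the median log2 fold change over all 8 markers was 0.29. The part of these markers in the class II values was not tested. Cd209a, a lectin of monocyte-derived dendritic cells, rose from 1, 3, 2 and 1 to 7, 10, 9 and 6 (log2 fold change 1.75, limma adjusted p = 0.00581), where the WT values are near the level that a count of 0 allows and the size depends on the pseudocount, from 0.95 with 5 added to 1.99 with 0.5, and Zbtb46, which endothelial cells express as well, fell (log2 fold change -0.26, limma adjusted p = 0.0373). The 5 B cell markers were at 0 to 9, with sums of 16 to 23 in WT and 7 to 21 in Mettl3 KO, and the 9 markers of T and NK cells were at 0 to 10, with sums of 19 to 32 and 23 to 32. Of these lymphocyte markers 0 passed (limma, with 1 B cell and 0 T and NK cell markers at an unadjusted p under 0.05 and 0 called by voom). Among structural cells, 6 of 7 fibroblast markers rose (sums of 3452 to 3948 and 4439 to 5389), and 3 of 8 endothelial markers, Kdr, Tie1 and Cdh5, fell (sums of 4294 to 4512 and 3728 to 4090). Some of these calls were less stable. That of Cd163 held in 12 of 17 alternatives and was lost without WT replicate 1 or 3 or Mettl3 KO replicate 3 or 4 (limma adjusted p of 0.0503 to 0.0862). Zbtb46 held in 10 of 17 and was lost without any library other than WT replicate 4 or Mettl3 KO replicate 1 (limma adjusted p of 0.0501 to 0.126). Cdh5 held in 14 of 17 and was lost without WT replicate 2 or Mettl3 KO replicate 3 (limma adjusted p of 0.0598 and 0.0626). These 3 calls were also lost without the mean-variance trend, as were those of Ccr2, Kdr and Tie1, which held in the other 16 alternatives. The same setting ended 5 of the 6 fibroblast calls, those of Col1a1, Col1a2, Col3a1, Pdgfra and Dcn (limma adjusted p of 0.0612 to 0.103), and Postn was the one that held. The part of cell composition in the class I and class II values was not tested.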

How the data were processed

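The series holds 8 libraries of heart total RNA (4 WT, 4 Mettl3 KO), stranded and read from one end over 72 bp. The authors trimmed reads with Trimmomatic 0.39, aligned them to mm39 with STAR 2.7.11a, removed duplicate (Picard 3.1.1), multi-mapping, ribosomal and mitochondrial reads, assigned the rest to exons of the matching strand (featureCounts 2.0.4, reads in more than one gene discarded) and normalized with DESeq2 1.36.0. The deposited values are a score, normalised read counts rounded to whole numbers, and not raw counts. Leaving out multi-mapping reads lowers near-identical H2 genes. The number of reads behind each library was estimated from gaps in its low values.

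Of all genes, 20313 averaged 1 or more and 2732 did not. The former were analysed in R 4.3.3 by limma 3.58.1 on log2(value + 1), using genotype alone, a mean-variance trend and two-sided Benjamini-Hochberg adjustment over all genes tested. Fold changes on this scale understate changes of low genes. Every member was described, with all values where its mean reached 10, and list genes were named where they passed. Alternatives changed scaling, tool, filter, pseudocount, replicate block and libraries. The members and lists were chosen with earlier results of these data known.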

Additional observations from a re-analysis of the deposited data

Results flagged for a closer look

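Within a genotype, a library was marked where its gap to the nearest of the other 3 exceeded the 95% limit of Dixon's ratio. Among 70 groups of 4 libraries searched, 5 were marked, and chance gives about 3.5. In Mettl3 KO, replicate 1 stood apart for Tap1 (118 against 94 to 98, ratio 0.833) and for Psmb8 (60 against 36 to 39, ratio 0.875), 2 genes that work in the same pathway. Mettl3 KO replicate 1 was also the highest library for H2-K1, H2-D1 and B2m, and it was the shallowest of the series with about 2631300 reads. The part of depth was not tested. The other marks concern values at the limit of detection: 2 against 0 for H2-M2 in Mettl3 KO, 0 against 1 for H2-Q10 in Mettl3 KO and 2 against 0 for H2-Eb2 in WT, each with a ratio of 1.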

How the results depend on the processing

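Psmb10 passed in 16 of 17 alternatives, with log2 fold changes of 0.44 to 0.63 and adjusted p of 0.000838 to 0.101. Without the mean-variance trend 0 members and 0 class I members were called (Psmb10 0.54, adjusted p = 0.101), and 321 genes in all compared with 1607, of which 297 were shared. With libraries left out in turn, 1 to 2 members and 1 to 2 class I members were called, the second being Nlrc5 without Mettl3 KO replicate 1. Class II members were at 0 in every alternative. With the replicate block 1 member was called and 1346 genes in all. The replicate numbers did not pair the libraries, as the correlations of deviations were 0.05, 0.04, -0.04 and 0.09 for the same-numbered pairs. Of 521 member values under an alternative, 496 kept direction and side of the threshold, 1 was lost, 1 was gained and 23 changed sign, all 23 where a library was left out. These ranged from -0.012 to 0.15 for B2m, -0.013 to 0.095 for Erap1, -0.028 to 0.21 for Tap1, -0.043 to 0.19 for Tap2, -0.16 to 0.025 for H2-K1, -0.36 to 0.043 for Psmb9, -0.54 to 0.11 for H2-M5, -0.22 to 0.079 for H2-Q5, -0.45 to 0.19 for H2-Q7, -0.18 to 0.057 for H2-T23, -0.43 to 0.73 for H2-DMb2 and -0.12 to 0.22 for H2-Ke6. Of the other 19 members tested, 15 kept their sign while 1 library moved the value by over 1.5 times, with ranges of -0.084 to -0.012 for Tapbp, -0.16 to -0.019 for H2-D1, -0.29 to -0.016 for Psmb8, -0.32 to -0.11 for H2-Q4, -0.78 to -0.31 for H2-Q6, -0.61 to -0.18 for Nlrc5, -0.80 to -0.32 for H2-Ob, 0.023 to 0.30 for H2-M3, 0.022 to 0.17 for H2-T22, 0.13 to 0.23 for H2-Ab1, 0.079 to 0.29 for H2-DMa, 0.26 to 0.57 for H2-DMb1, 0.034 to 0.18 for H2-Eb1, 0.061 to 0.21 for Cd74 and 0.012 to 0.24 for Ciita. Psmb10, H2-Aa, H2-T10 and H2-T24 stayed within 1.5 times. Mettl3 KO replicates 1, 2 and 4 and WT replicates 1, 3 and 4 gave the ends of these 15 ranges. The sums changed little, with ratios of 0.94 to 1.03 for class I and 1.07 to 1.17 for class II. The causes were not tested. At this depth, members under a value of 10 could show only large changes.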

Other observations

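All genes other than Nlrc5 that averaged 10 or more, members included, were ranked by their correlation with Nlrc5 over the 8 libraries with genotype means removed, a look taken after the values were seen and given as a description. The 5 genes with the highest r of 13794 were Sars2 (r 0.998), Prkar1a (0.98), Metap1 (0.97), Irf9 (0.97) and Ttl (0.96), whose known roles are in mitochondrial tRNA charging, protein kinase A signalling, removal of the first methionine of new proteins, the interferon response and tubulin tyrosination. The members among the first 30 were H2-K1, H2-Q4 and H2-Q5. Irf9 was at 169, 152, 135 and 165 in WT and at 207, 153, 179 and 158 in Mettl3 KO, highest in Mettl3 KO replicate 1 and lowest in WT replicate 3, and did not pass the test between genotypes (limma adjusted p = 0.371). No list of genes was tested against this ranking.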
